A study of Mus musculus with 8 samples.

Results

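Metallothioneins are small cysteine-rich proteins, and 8 of their genes were followed through 2 RNA-seq experiments. The members were picked by gene symbol, with a rise after depletion of PRMT1 in view. They were MT1E, MT1F, MT1G, MT1M, MT1X and MT2A, 6 of the 60237 genes of the knockdown experiment, and Mt1 and Mt2, 2 of the 21757 genes of the genotype experiment. In all, 8 of 81994 listed genes were members. The knockdown values were part of the choice, so they are given for the members as a description without a test.

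The knockdown experiment held 2 libraries with a scrambled hairpin (sh-scramble) and 2 with one that targets Prmt1 (sh-Prmt1), a gene whose product places asymmetric dimethyl marks on arginine. The genotype experiment held 2 libraries of wild-type (WT) mouse small-intestinal organoids, which are epithelial cultures grown in a gel, and 2 of organoids labelled Ctnnb1-ex3, a name in use for beta-catenin alleles without exon 3, the exon that carries the degradation signal. Per the labels, the WT medium held Wnt3a, R-spondin1, Noggin and EGF, whereas the medium of the mutant held neither Wnt3a nor R-spondin1, so that effects of genotype and medium cannot be told apart. The labels name no age, and they do not say whether replicates were separate animals, cultures or clones, so every p-value reflects variation among the libraries sequenced, possibly of technical origin only. The hairpin libraries carry mouse labels, yet all 60237 of their gene identifiers were human and 0 were mouse. The cells behind them were therefore not established here, and the other alleles they may carry are not known.

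Metallothioneins bind zinc and copper through clusters of cysteine thiols and take up cadmium and other toxic metals. Their transcription rises when free zinc reaches the factor MTF1, which binds metal response elements in their promoters, and glucocorticoids and oxidants also act on some of these promoters. In the intestine they buffer zinc that enters from the diet. MT1 and MT2 forms occur in most tissues, MT3 is best known from the brain and MT4 from stratified epithelium.

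The mouse genes were read from the reference because Mt1 and Mt2 kept a nearly fixed ratio in these libraries, as described further on. On the plus strand of mouse chromosome 8 (GRCm38, the mm10 build, GENCODE vM21), the order was Mt4 at 8:94137197-94139031, Mt3 at 8:94152607-94154146, Mt2 at 8:94172664-94173568 and Mt1 at 8:94179082-94180327. Mt1, Mt2 and Mt3 have 3 exons each. The 4 genes span 43131 bases between Bbs2 and Nup93, with 5513 bases between Mt2 and Mt1 and 18517 between Mt3 and Mt2. The 250 bases before the RefSeq start of 3 of these genes (GRCm38.p6, plus strand, 5′ to 3′) are shown to compare the pair with Mt3. Capitals mark the core of the metal response element, searched as TGCACNC or TGCGCNC on both strands, so that a match on the minus strand appears as its reverse complement.

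Mt1, 8:94178839-94179088: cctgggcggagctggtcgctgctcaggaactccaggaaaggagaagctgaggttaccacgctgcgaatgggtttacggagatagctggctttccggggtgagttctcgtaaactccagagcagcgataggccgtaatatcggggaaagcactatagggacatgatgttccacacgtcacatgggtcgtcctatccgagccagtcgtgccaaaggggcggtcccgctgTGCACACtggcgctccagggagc
Mt2, 8:94172368-94172617: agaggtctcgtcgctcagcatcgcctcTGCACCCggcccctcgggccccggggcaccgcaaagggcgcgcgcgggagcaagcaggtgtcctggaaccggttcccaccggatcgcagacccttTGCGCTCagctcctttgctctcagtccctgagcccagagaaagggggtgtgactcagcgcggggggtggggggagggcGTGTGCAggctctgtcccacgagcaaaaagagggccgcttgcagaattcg
Mt3, 8:94152357-94152606: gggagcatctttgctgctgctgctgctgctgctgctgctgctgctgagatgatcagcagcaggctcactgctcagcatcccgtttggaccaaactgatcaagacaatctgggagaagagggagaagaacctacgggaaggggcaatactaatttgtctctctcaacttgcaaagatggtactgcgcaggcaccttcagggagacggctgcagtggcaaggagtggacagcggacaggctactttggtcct

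With the 50 bases after the start included, the Mt2 window held 4 core matches, 3 of them upstream, and the Mt1 window held 3, with 1 upstream. Mt3 and Mt4 held 1 each, and the match of Mt3 lay after the start. The RefSeq starts of Mt1 and Mt2 differ from the GENCODE starts given above, so which matches count as upstream depends on the start used. Bases outside the windows were not searched. Among 32851 RefSeq promoter windows of the same 300 bases, 25.7% held at least 1 core match, 1.97% at least 3 and 0.52% at least 4. The Mt1 window also held 3 matches to the GC box GGGCGG, which occurred at least 3 times in 10.71% of windows. One of these began on the last base of a metal response core. Only Mt2 among the 4 genes had the antioxidant response core TGACNNNGC, present in 12.4% of windows, and 0 of the 4 had the E-box CACGTG, present in 7.2%. These matches are letters in a window and show no binding.

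**Figure D1:**
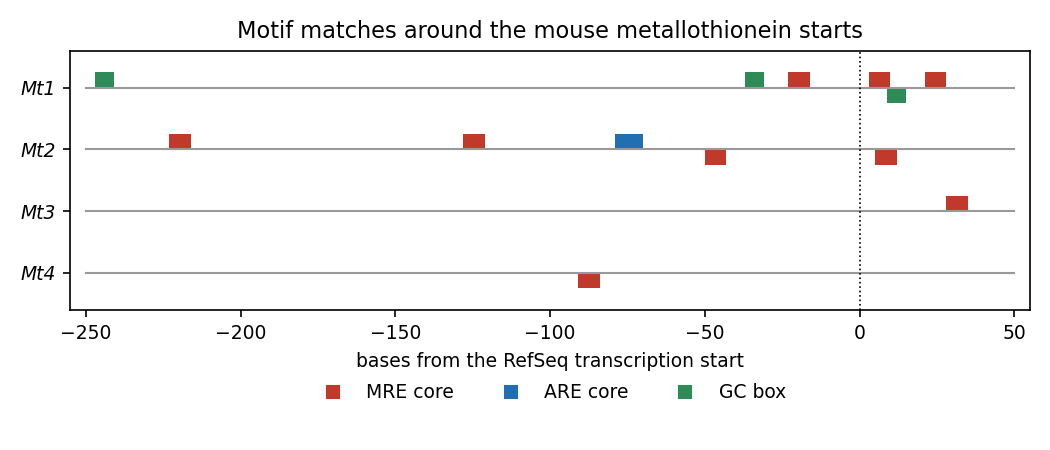
Position of motif core matches, in bases from the RefSeq start, in the 300-base promoter windows of mouse Mt1, Mt2, Mt3 and Mt4. Boxes above a line are on the plus strand and boxes below it on the minus strand; Mt1 holds 3 and Mt2 holds 4 metal response cores, and Mt3 and Mt4 hold 1 each.

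The coding sequences show what these proteins have in common. They are given from GENCODE vM21 on GRCm38, spliced from the coding exons, with every in-frame cysteine codon (TGC or TGT) in capitals.

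Mt1: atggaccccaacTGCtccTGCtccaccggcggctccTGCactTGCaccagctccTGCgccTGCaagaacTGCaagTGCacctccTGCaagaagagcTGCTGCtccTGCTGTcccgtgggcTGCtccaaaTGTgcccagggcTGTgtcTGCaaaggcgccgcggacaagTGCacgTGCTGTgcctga
Mt2: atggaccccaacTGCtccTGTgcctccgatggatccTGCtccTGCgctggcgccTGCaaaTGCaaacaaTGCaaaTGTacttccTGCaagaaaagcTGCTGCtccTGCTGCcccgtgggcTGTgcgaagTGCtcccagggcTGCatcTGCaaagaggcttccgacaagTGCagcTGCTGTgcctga
Mt3: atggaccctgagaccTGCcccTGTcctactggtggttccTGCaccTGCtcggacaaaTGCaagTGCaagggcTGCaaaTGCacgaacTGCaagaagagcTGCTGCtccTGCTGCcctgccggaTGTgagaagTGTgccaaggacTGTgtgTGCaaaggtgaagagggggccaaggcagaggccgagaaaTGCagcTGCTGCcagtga

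Each of the 3 holds 20 cysteine codons, which make up 32.8% of the 61 codons of Mt1 and of Mt2 and 29.4% of the 68 codons of Mt3. Mt1 and Mt2 were identical at 148 of 186 aligned bases (79.6%), and their longest shared run was 20 bases. Identity was 65.2% between Mt1 and Mt3 and 67.6% between Mt2 and Mt3. Human sequences were not used here. The human MT1 genes are known as close copies of each other. In the knockdown files 22 of the 24 estimated counts of the 6 human members lay more than 0.01 from a whole number, since Salmon divides a read that matches several transcripts between them. Values of single human members are for that reason uncertain, and the family sum is given beside them.

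The sh-scramble libraries totalled 39736404 and 45888287 estimated counts, and those of sh-Prmt1 totalled 39608249 and 53193449. Depth was far lower in the genotype experiment, where totals were 4631527 and 2951887 counts for the WT libraries and 6015933 and 3683169 for the mutant ones. PRMT1 itself stood at 32.1 and 32.2 TPM (transcript abundance corrected for length and scaled to a fixed total) in sh-scramble and at 3.39 and 3.71 TPM in sh-Prmt1. The ratio of mean TPM was 0.111. In the fit to estimated counts PRMT1 was 11.2-fold lower in sh-Prmt1 (log2 fold change -3.48 ± 0.12 SE, edgeR adjusted p = 1.01e-06, n = 2 against 2), as the labels have it.

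In the knockdown experiment MT1G, MT1E and MT1F were several times higher in both sh-Prmt1 libraries than in both sh-scramble libraries, MT1X was higher by less, and MT2A barely differed. Fold changes below come from a fit to estimated counts that is relative to the bulk of genes. TPM folds run higher, because the median tested gene had a log2 ratio of 0.19 on mean TPM against 0.03 in the fit. In bulk RNA, more cells that express a gene and more RNA per cell cannot be told apart.

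MT1G, a form known for expression in epithelia, stood at 8.78 and 11.5 TPM in the sh-scramble libraries and at 89.8 and 82.6 TPM in the sh-Prmt1 libraries. The groups were far apart, and the fitted fold was 7.58 (log2 fold change 2.92 ± 0.13 SE). By TPM, MT1G moved from rank 4972 and 4386 among all genes in sh-scramble to rank 1116 and 1084 in sh-Prmt1. MT1E had 3.92 and 6.81 TPM in sh-scramble against 33.7 and 32.3 TPM in sh-Prmt1, a fold of 5.29 (log2 2.40 ± 0.20). Here the sh-scramble libraries differed from each other by more than the sh-Prmt1 libraries did, and without sh-scramble replicate 1 or replicate 2 the log2 fold change was 2.05 or 2.80. MT1F had 7.29 and 5.76 TPM in sh-scramble against 36.6 and 32.5 TPM in sh-Prmt1, a fold of 4.42 (log2 2.14 ± 0.16). The 3 genes thus had no overlap between groups.

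MT1X was the most abundant member in every library. Its TPM was 159 and 169 in sh-scramble, against 249 and 243 in sh-Prmt1, so that the groups were separate but the fold was only 1.32 (log2 0.40 ± 0.08). MT2A, the human MT2 form, had 72.1 and 79.8 TPM in sh-scramble, against 91.6 and 86.3 TPM in sh-Prmt1. The groups did not overlap in TPM but did in count-based CPM (counts relative to library size, scaled by TMM), with means of 24.8 and 25.0. The fitted fold of MT2A was 1.01 (log2 0.01 ± 0.09), and its direction changed to -0.01 with RLE size factors. MT1M was at the edge of detection. Its 2 sh-scramble libraries held 1.0 and 0 estimated counts, against 6.13 and 19.4 for the sh-Prmt1 ones. It failed the filter on low counts, as the only member to do so. Per total count its ratio was 24.0, from 1 count against 26 summed over the libraries of a group, so its size is loosely set. A limit of 3 counts in a library was worth between 0.0564 and 0.0757 CPM.

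Of the 6 human members, 5 were thus tested for the background. Both sh-Prmt1 libraries lay above both sh-scramble libraries in CPM for MT1E, MT1F, MT1G and MT1X. The same order held for 36.7% of the 18448 genes tested, and 71.1% had groups that did not overlap in either direction. By edgeR adjusted p, 41.0% of these genes were called, 20.6% as higher and 20.4% as lower, but nothing is read from these shares since the members were chosen on this contrast. In the authors' deposited table, MT1G, MT1E and MT1F had log2 fold changes of 2.83, 2.34 and 2.13 and were marked as upregulated. The mark was given to 0.385% of the 60237 genes, a total that includes genes at 0 and is not the set of genes tested above. Nothing is read from this share either, since the members were chosen on this contrast. In the same table MT1X (0.34), MT2A (0.0) and MT1M (0.2) were not marked. By its name the table sets a limit on the fold as well as on p, so a small fold cannot earn the mark. The deposited value of MT1M is not on the scale of its count ratio of 24.0, and nothing is read from it.

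**Figure D2:**
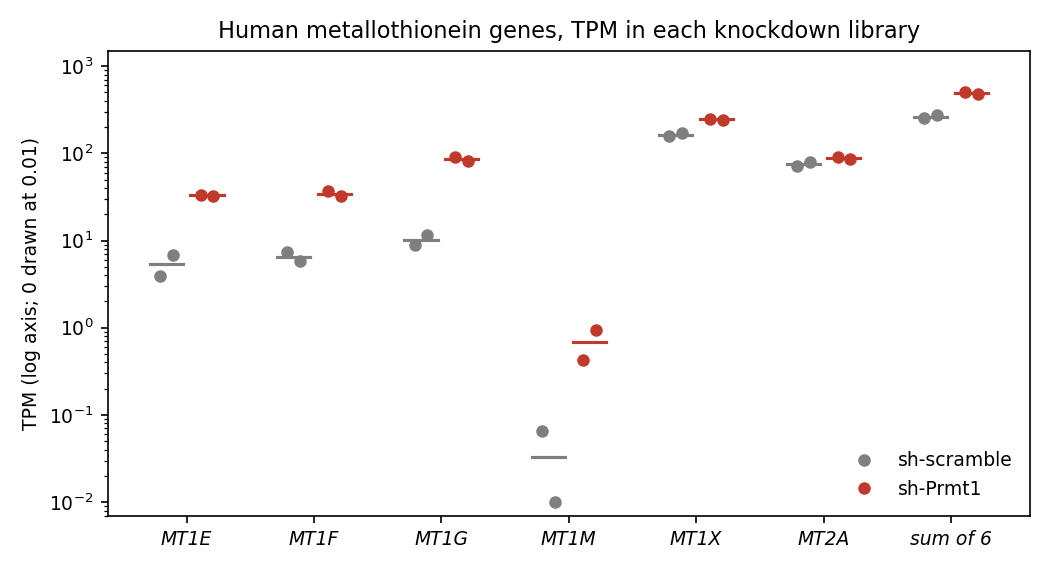
TPM of the 6 human members and of their sum on a log axis, with 1 point per library and bars at the mean of 2 libraries for sh-scramble and sh-Prmt1 and with 0 drawn at 0.01. MT1G has a mean of 10.1 in sh-scramble and 86.2 in sh-Prmt1, whereas MT1X and MT2A, the most abundant members, differ by less.

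The family sum weighs the members by abundance. Summed over the 6 genes, TPM was 251 and 273 in sh-scramble, against 501 and 478 in sh-Prmt1, that is 262 ± 15.7 and 489 ± 16.7 (SD, n = 2). On TPM the sum was 1.87-fold higher in sh-Prmt1, and the fit to summed estimated counts gave 1.67-fold (log2 0.74 ± 0.08 SE). The low-abundance genes carried most of the difference. MT1E, MT1F, MT1G and MT1M together had 20.0 and 24.1 TPM in sh-scramble against 161 and 148 TPM in sh-Prmt1, a log2 ratio of 2.81 in mean TPM and 58.1% of the difference in the sum. MT1X and MT2A together went from 240 to 335 TPM in the mean, 1.40-fold and 41.8% of the difference. By single gene, MT1X gave 36.1% of the difference in TPM and MT1G 33.5%.

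The make-up of the family therefore differed between the groups. MT1X was 63.3% and 62.0% of the summed TPM in sh-scramble, against 49.7% and 50.9% in sh-Prmt1. MT2A made up 28.7% and 29.2% against 18.3% and 18.1%. MT1G made up 3.50% and 4.21% against 17.9% and 17.3%. In sh-scramble MT1G was at 0.122 and 0.144 of the TPM of MT2A, and in sh-Prmt1 at 0.980 and 0.957, so that these 2 genes were near the same TPM in sh-Prmt1.

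**Figure D3:**
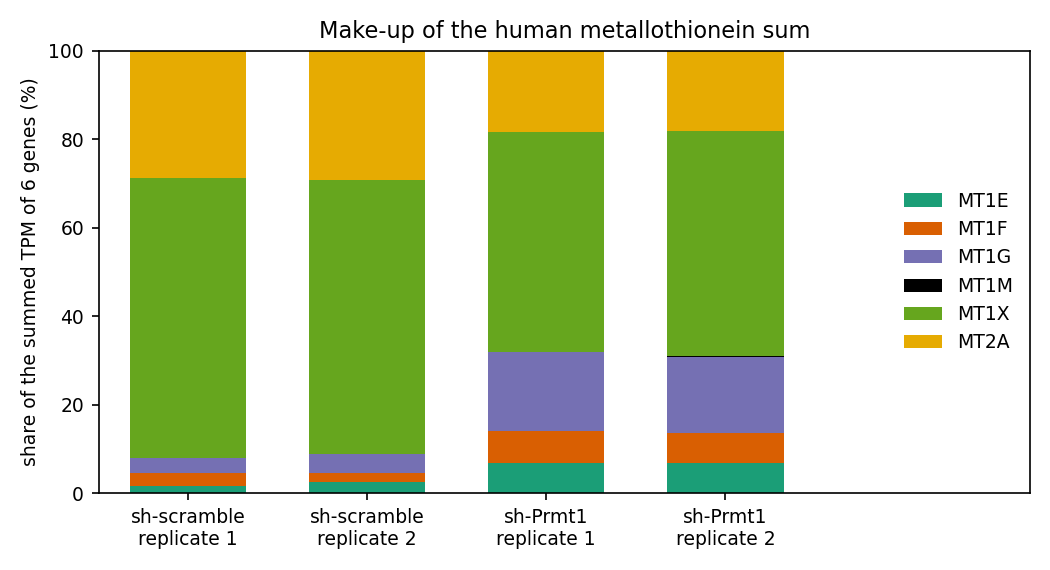
Share of each human member in the summed TPM of the 6 genes, in percent, for each of the 4 knockdown libraries. MT1X has 63.3% and 62.0% in sh-scramble against 49.7% and 50.9% in sh-Prmt1, and MT1G, MT1E and MT1F have larger shares in both sh-Prmt1 libraries.

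The other 13 human metallothionein genes of the table, pseudogenes included, summed to 15.7 ± 0.861 TPM in sh-scramble and 26.1 ± 1.42 TPM in sh-Prmt1. Adding them gave 278 and 516 TPM for all 19 genes, 1.86-fold. MT3 was the highest of these, with 7.87 and 6.43 TPM in sh-scramble against 14.2 and 14.4 TPM in sh-Prmt1 (log2 0.77 ± 0.21). MT1A had 4.36 and 6.29 TPM in sh-scramble, against 3.77 and 6.90 TPM in sh-Prmt1, with groups that overlapped (log2 -0.16 ± 0.33). MT1L had 0.397 and 0.182 TPM in sh-scramble, against 0.717 and 0.890 TPM in sh-Prmt1 (log2 1.26 ± 0.65), and MT1H had 0.376 and 0.207 against 0.627 and 1.07 TPM and failed the filter. MT1B, MT1CP and MT1P3 were listed at 0 in all 4 libraries. In CPM, both sh-Prmt1 libraries stood above both sh-scramble libraries for MT3, MT1L, MT1H and MT4 but not for the others, MT1A included. The same order held for 36.7% of all genes tested. MT4 had only 1 and 1 estimated counts in sh-scramble against 6 and 2 in sh-Prmt1 and failed the filter. The split between copies is subject to how shared reads were assigned.

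Transcript length set the members apart from most genes. Their effective lengths were all under 350 bases. The 1809 tested genes with an effective length of at most 350 bases had a median log2 fold change of -0.13, and 34.5% of them were called, against 0.03 and 41.0% for all tested genes. The part of transcript length in the values of the human members was not tested.

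The choice of members made no stated use of genotype values, but earlier results of these data were known when it was made. In the genotype experiment, Mt1 and Mt2 were lower in Ctnnb1-ex3 than in WT by about the same factor. Neither passed the test in the main fit, which had all 4 libraries, the filter on low counts and no replicate block. Both did in some alternatives, among them the fit with the replicate number as a block. The WT libraries held 763 and 667 Mt1 counts and the Ctnnb1-ex3 libraries 783 and 684, equal to 176 and 254 CPM against 118 and 176 CPM. The lower WT library and the higher Ctnnb1-ex3 library thus met at the same level. The means were 215 ± 55.2 and 147 ± 41.0 CPM (SD, n = 2), and the fit gave -0.55 ± 0.24 SE on the log2 scale (edgeR adjusted p = 0.103). For Mt2 the count was 590 and 511 among WT libraries, against 636 and 509 in the mutant, equal to 136 and 194 CPM against 95.6 and 131 CPM. Its groups did not overlap, and the means were 165 ± 41.4 and 113 ± 24.9 CPM, with -0.54 ± 0.22 SE on the log2 scale (edgeR adjusted p = 0.0782).

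Among the 12976 genes tested, 40.8% were called, 20.3% as higher and 20.5% as lower. Groups did not overlap in 73.6% of genes, and 38.1% had both Ctnnb1-ex3 libraries above both WT libraries. Of the 2 mouse members 0 were called by edgeR, and 0 by DESeq2 or limma-voom, while the unadjusted p of edgeR was 0.0528 for Mt1 and 0.0365 for Mt2. Both were called by edgeR once low-count genes were kept (adjusted p = 0.0272 for Mt1 and 0.0394 for Mt2). Both were also called with all 4 libraries, the filter and the replicate number as a block. Without WT replicate 2 both stood at -0.28 on the log2 scale. With other single libraries left out, Mt1 ran down to -0.86 and Mt2 to -0.81. All genes called split into 2637 higher and 2654 lower in the fit with TMM factors and into 3725 and 1752 with upper-quartile factors, which shifted the median gene from 0.02 to 0.26. With the latter, Mt1 stood at -0.32 and Mt2 at -0.31 on the log2 scale, still below the median gene. A p above the threshold does not show that the levels were alike.

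**Figure D4:**
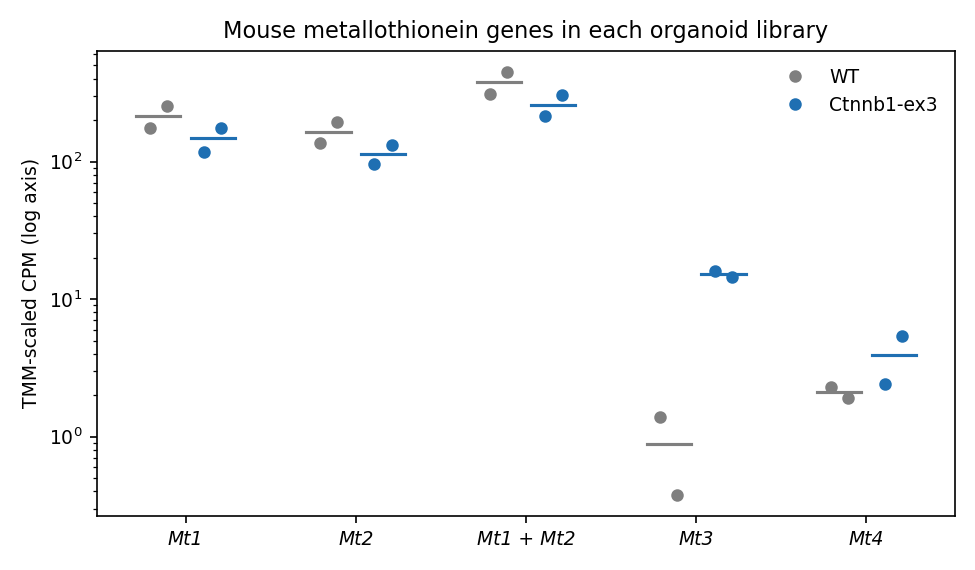
CPM of mouse Mt1, Mt2, their sum, Mt3 and Mt4 on a log axis, with 1 point per library and bars at the mean of 2 libraries for WT and Ctnnb1-ex3. Mt1 and Mt2 are the abundant forms and are lower in Ctnnb1-ex3 in the mean, whereas Mt3 is low in WT and higher in both Ctnnb1-ex3 libraries.

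The pair kept its proportions. Mt1 was 1.29 and 1.31 times Mt2 in WT, against 1.23 and 1.34 times in Ctnnb1-ex3, or between 55.2% and 57.3% of their sum. The sum had 312 and 448 CPM in WT, against 213 and 306 CPM in Ctnnb1-ex3, with a log2 fold change of -0.55 ± 0.25 SE and no test. Replicate 2 stood 1.44 times above replicate 1 for the sum in both groups, a spread between libraries about as large as the difference between groups.

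The median short transcript was also lower in Ctnnb1-ex3 and higher in replicate 2. Mt1 and Mt2 have transcripts of 549 and 511 bases, against a median of 3052 over the 11664 tested genes with a length in the annotation (89.9%). The 146 tested genes with transcripts of at most 600 bases, a limit chosen after the values were seen, had a median log2 fold change of -0.39, against 0.01 for all genes with a length. Their median log2 ratio of replicate 2 to replicate 1 was 0.35 in WT and 0.52 in Ctnnb1-ex3, against -0.02 and -0.00. Of these short genes 13.7% were called lower, against 21.3%. The class includes Mt1 and Mt2 themselves, and also Mt3 and Mt4, which were higher in Ctnnb1-ex3 in the mean. The part of transcript length in the Mt1 and Mt2 values was not tested.

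Mt3, the form best known from neurons, went the other way from Mt1 and Mt2. The WT libraries held 6 and 1 Mt3 counts and the Ctnnb1-ex3 libraries 107 and 56, where 1 is the lowest value of that table and may stand for 0 reads. This is 1.38 and 0.38 CPM against 16.1 and 14.4 CPM, a log2 fold change of 3.94 ± 0.62 SE that passed the test (edgeR adjusted p = 0.00225). One WT library was under the level of 3 counts, so the size of the fold is loosely set, and it ran from 3.43 to 5.20 over the alternatives, all of which kept the call, and was 4.41 with 1 taken away from every count. For Mt4 the count was 10 and 5 among WT libraries, against 16 and 21 in the mutant, and the log2 fold change of 0.83 ± 0.62 SE did not pass (edgeR adjusted p = 0.316). Per kilobase of transcript, Mt1 had 391 ± 101 CPM in WT and 267 ± 74.7 CPM in Ctnnb1-ex3, Mt2 had 323 ± 81.0 and 221 ± 48.7, and Mt3 had 1.64 ± 1.32 and 28.4 ± 2.24. Mt3 thus stayed far under the levels per length of Mt1 and Mt2 in both groups. Mt1 stood above Mt2 per kilobase within each of the 4 libraries, at 320 against 266 and 462 against 380 CPM for WT and at 214 against 187 and 320 against 256 CPM for the mutant. Prmt1 was higher in Ctnnb1-ex3, at 41.8 CPM against 10.8 in the mean (log2 1.97 ± 0.33 SE, edgeR adjusted p = 0.00287).

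The genes whose pattern over the 4 libraries lay nearest to that of the family sum were found by the distance between centred log2 CPM values. In the knockdown experiment these were TOR1B (distance 0.0198), MORF4L1, CBX1, TAF5L and ERMP1 (0.0401), out of 8503 genes. In the genotype experiment they were Ubb (0.0343), Cox6a1, Atp5g1, Dad1 and Ndufa11 (0.0546), out of 11096 genes. In that order, the transcripts of these mouse genes had 1499, 571, 4715, 3491 and 545 bases, so both short and long ones were among them. Over only 4 libraries this likeness is a description.

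The genes that act upstream of metallothioneins or share their metals were then counted from lists. The median of all tested genes was 0.03 in the knockdown and 0.02 in the genotype experiment. Of all tested genes, edgeR called 20.6% higher and 20.4% lower in the knockdown experiment, and 20.3% and 20.5% in the genotype experiment. List counts near these shares are not read as a result about the list. Of 12 factors known to act at metallothionein promoters, 2 were higher and 2 lower in sh-Prmt1, with a median log2 fold change of 0.00. MTF1, the zinc sensor, was higher by 0.39 on the log2 scale (edgeR adjusted p = 0.0112), a call that was lost without sh-scramble replicate 1 (0.0908), without sh-Prmt1 replicate 2 (0.0544) and with no filter on low counts (0.0537). STAT3 was higher (0.33, edgeR adjusted p = 0.0138), but not without sh-scramble replicate 1 (0.150), without sh-Prmt1 replicate 1 (0.0867) or with no filter (0.0835). NFE2L2, the oxidant-responsive factor NRF2, and SP1 were lower (-0.71 and -0.37). NR3C1, the glucocorticoid receptor, had mean TPM of 0.0187 and 0.0435, which is close to absent.

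Genes of zinc transport were split between directions in sh-Prmt1, as were all tested genes. Of 10 ZnT genes, whose proteins move zinc out of the cytosol, 8 were tested, 2 were higher and 3 lower (median log2 fold change -0.32). SLC30A10, best known for manganese export, was higher (3.30, edgeR adjusted p = 2.11e-05), and SLC30A7, which loads the Golgi, was lower (-1.33). SLC30A1, the plasma membrane exporter that MTF1 also controls, was lower (-0.36, edgeR adjusted p = 0.00979), a call lost without sh-scramble replicate 2 (0.0649). Of 14 ZIP genes, whose proteins bring zinc into the cytosol, 13 were tested with 4 higher and 4 lower, or 2 higher with RLE size factors. SLC39A10 was lower (-0.88), as was SLC39A8 (-1.41), and SLC39A6 was higher (0.60). Of 15 genes of copper handling, 2 were higher and 3 lower, with COMMD1 at 0.75, CCS at 0.74 and COX17 at -0.94.

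Stress-responsive lists had calls in both directions in sh-Prmt1, as had all tested genes, but those of the glucocorticoid list were mostly higher. Of 12 glucocorticoid-responsive genes 11 were tested, 7 were higher and 1 lower (median log2 fold change 0.46). Of all tested genes 20.6% were higher and 20.4% lower (median 0.03), and the list was not tested as a set. TSC22D3 was higher (1.34, edgeR adjusted p = 0.000104), as was NFKBIA (0.85), while PER1 (1.36) lost its call without sh-scramble replicate 1 (edgeR adjusted p = 0.0858) or sh-Prmt1 replicate 1 (0.133) and ZBTB16 (2.34) with effective length as an offset (0.113). Of 16 oxidant-responsive genes 5 were higher and 5 lower (median -0.02), or 4 and 7 with RLE size factors. HMOX1, which degrades heme, was higher, from 5.41 ± 0.76 to 20.0 ± 1.73 TPM (log2 1.66, edgeR adjusted p = 9.41e-06), and TXN, thioredoxin, was lower (-1.25). Of 11 heat shock genes 3 were higher and 5 lower. The human metallothionein cluster has neighbours on its chromosome, of which 19 were tested, with 8 higher and 5 lower (median 0.08) and PLLP at 1.30 among the higher. These neighbours thus went both ways.

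The same lists were counted in the genotype experiment, where Mt1 and Mt2 stood at -0.55 and -0.54. Of the 12 promoter factors 3 were higher and 5 lower (median log2 fold change -0.24), or 4 and 3 with upper-quartile factors (median -0.00). Mtf1 was lower (-0.82, edgeR adjusted p = 0.0264), a call lost without WT replicate 1 (0.171) and with upper-quartile factors (0.101), and Nr3c1 was lower (-1.15). Of 8 ZnT genes tested 7 were lower (median -0.95), or 5 with upper-quartile factors, and 0 were higher by edgeR, DESeq2 or limma-voom or at an unadjusted p under 0.05. Slc30a1 fell from 84.8 ± 0.521 to 27.9 ± 3.88 CPM (log2 -1.59, edgeR adjusted p = 0.000525), and Slc30a10 was lower too (-3.20). Of 12 ZIP genes tested 2 were higher and 6 lower, and Slc39a10 was among the higher (1.52, edgeR adjusted p = 0.00277). Of 14 copper genes tested 0 were higher by edgeR, DESeq2 or limma-voom or at an unadjusted p under 0.05, and 3 were lower by edgeR, or 5 with RLE size factors and 8 at an unadjusted p, with Slc31a1, the copper importer, at -1.28.

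Of the 12 oxidant-responsive genes tested in the organoids 1 was higher and 9 lower (median log2 fold change -0.77). Nqo1 (-2.36) and Osgin1 (-2.33) were lower, and Hmox1 (-2.45, edgeR adjusted p = 0.00771) was lower but lost its call without WT replicate 2 (0.146). Of 10 glucocorticoid-responsive genes tested 3 were higher and 5 lower, with Sgk1 at -2.20, Tsc22d3 at -1.57 and Glul at 1.18. Of 10 heat shock genes tested 0 passed the edgeR test in either direction, against 2 lower by DESeq2, 0 by limma-voom and 2 lower at an unadjusted edgeR p under 0.05. With RLE size factors edgeR called 1 lower, and with upper-quartile factors 1 higher. Of 17 neighbour genes tested 1 was higher and 4 lower.

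**Figure D5:**
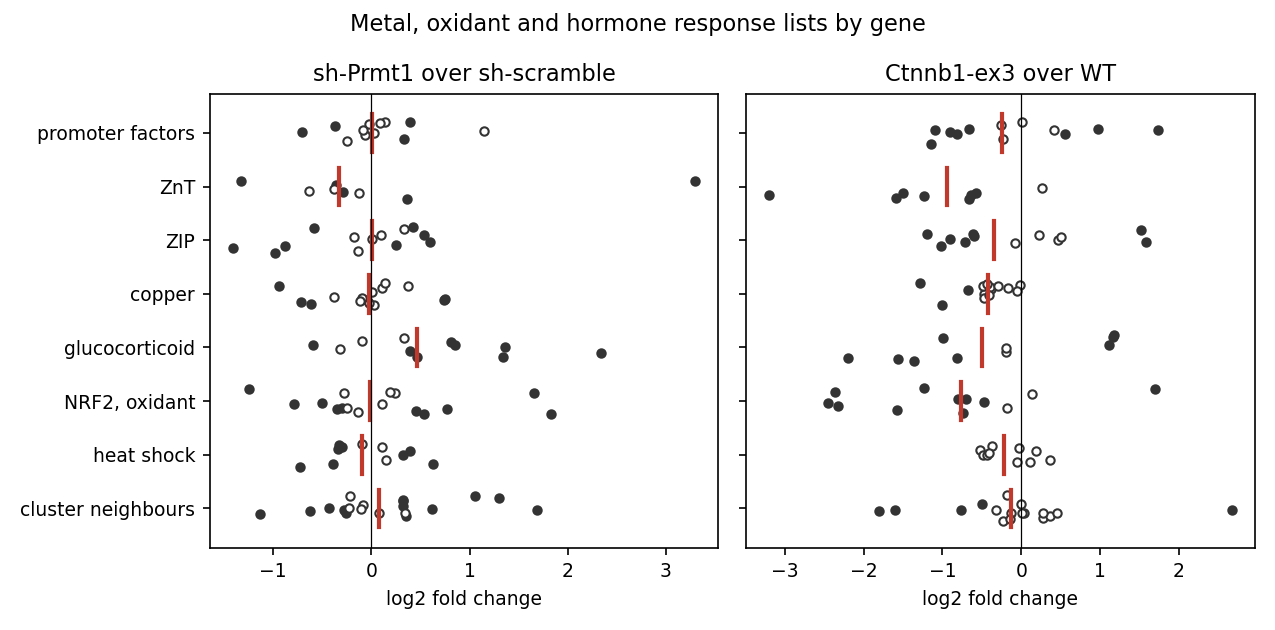
Log2 fold change of each tested gene of the lists in the knockdown (sh-Prmt1 over sh-scramble) and genotype (Ctnnb1-ex3 over WT) experiments, with filled points for genes past the edgeR test and red bars at list medians. The ZnT genes have medians of -0.32 and -0.95, and the glucocorticoid-responsive genes 0.46 and -0.50.

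Markers of intestinal epithelium were expressed in every library. All 11 of 11 were listed above 0 in the knockdown experiment and summed to 2144 and 2256 TPM in sh-scramble and to 3513 and 3116 TPM in sh-Prmt1, with 5 higher and 0 lower by edgeR (1 lower by DESeq2 and at an unadjusted p under 0.05). In the genotype experiment they summed to 3639 and 4567 CPM in WT and to 2231 and 2954 CPM in Ctnnb1-ex3, with 5 lower and 0 higher by edgeR, DESeq2 or limma-voom or at an unadjusted p under 0.05, so the sum lay in the same direction as the metallothionein sum in both experiments. The 9 immune and blood markers summed to 1.02 and 0.867 TPM in sh-scramble and to 7.05 and 7.96 TPM in sh-Prmt1. HBB, a globin gene (3.86 and 5.32 TPM), and CD68 (2.27 and 1.86 TPM) made up most of the latter sums, while PTPRC, CD3E, MS4A1 and ITGAM were each under 0.1 TPM in every library. The 7 liver and kidney markers summed to 0.225 and 0.671 against 3.02 and 3.82 TPM. TTR alone gave 2.41 and 3.44 TPM of the latter sums. The highest value of any other marker of that list in a library was 0.277 TPM, for SERPINA1. The 9 stroma markers summed to between 0.471 and 1.35 TPM. In the organoids 7 of the 9 immune and blood markers were listed, and they summed to 25.3 and 16.7 CPM for WT, against 12.2 and 17.7 CPM for the mutant. Members of that list went different ways. The leukocyte marker Ptprc had counts of 4 and 2 in WT, against 1 and 25 in Ctnnb1-ex3, and the T cell marker Cd3e 1 and 1 against 2 and 14. The macrophage marker Cd68 had 45 and 11 against 34 and 3, and Itgam 54 and 22 against 38 and 9. With Ctnnb1-ex3 replicate 2, the library with most Ptprc and Cd3e counts, left out, Mt1 stood at -0.86 and Mt2 at -0.78 on the log2 scale. The part of other cell types in the metallothionein values was not tested.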

How the data were processed

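Polyadenylated RNA was sequenced after a custom Smart-seq2 protocol, per the labels. For the genotype experiment the authors deposited whole-number counts per mouse gene; the lowest value is 1 and counts were used as deposited. Per the file headers, the deposited knockdown files are Salmon output with estimated counts, TPM and effective lengths per human gene. Estimated counts were rounded. The authors' deposited table of log2 fold changes and p-values was used for symbols and the quoted log2 fold changes. The submitters' processing notes name mm10, Salmon and DESeq2; a human build is not given in the sources used here. Of the human genes, 54 sex-linked ones were left out.

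The 2 experiments were fitted separately in edgeR 4.0.16 under R 4.3.3 (TMM, filterByExpr, two-sided quasi-likelihood test, Benjamini-Hochberg over all genes, called at an adjusted p under 0.05). A fold is the second group over the first. For the family sum the member rows were replaced with their sum. DESeq2 1.42.0 and limma-voom 3.58.1 were alternatives, with other scalings, filters, a replicate block and each library left out. Fits were checked on simulated data. Named are the members, and from each list at most the 4 largest changes past the test and the best known metal-responsive gene. The members and lists were chosen with earlier results of these data known.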

Additional observations from a re-analysis of the deposited data

How the results depend on the processing

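In the knockdown experiment the log2 fold change of the family sum (0.74) was 0.70 without a filter on low counts, 0.90 as a ratio of mean TPM, and 0.66 to 0.75 with 1 library left out. MT2A, at 0.01, turned to -0.01 with RLE size factors, with DESeq2 and without sh-Prmt1 replicate 2, to -0.02 without a filter, and to -0.07 without sh-scramble replicate 1, and ran up to 0.03 with another library left out. The number of genes called in the genotype experiment (5291) ran from 2634 to 7757 with 1 library left out, at 2960 without WT replicate 1 and 2634 without WT replicate 2. Mt1 (-0.55) passed the edgeR test without a filter (-0.51, adjusted p = 0.0272) and without Ctnnb1-ex3 replicate 2 (0.00124), and it ran from -0.86 to -0.28 with 1 library left out. Mt2 (-0.54) passed without a filter (-0.50, adjusted p = 0.0394) and when WT replicate 1 (0.0379) or Ctnnb1-ex3 replicate 2 (0.000877) was dropped, and it ran from -0.81 to -0.28 with 1 library left out. With the replicate number as a block in edgeR, Mt1 was at -0.55 (adjusted p = 0.00181) and Mt2 at -0.54 (adjusted p = 0.00362), with 6484 genes called, and 7091 in the knockdown experiment. Over the tested genes, deviations of replicate 1 from its group mean had a correlation between the groups of 0.0706 (genotype) and -0.0514 (knockdown). Such a value over all genes cannot tell whether a batch was shared for some of them. Whether same-numbered libraries share a source was not tested. Over all alternatives the adjusted p ran from 0.00124 to 0.518 for Mt1 and from 0.000877 to 0.495 for Mt2. The causes were not tested. Mt1 gained a call in 3 and Mt2 in 4 of 11 alternatives. Over the other single genes, 731 of 764 alternative values kept their direction and call or lay within 1 SD, 16 lost their call, 12 moved and 5 changed sign. With 2 libraries a group and no stated source of replicates, small differences are out of reach.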
